A study of Mus musculus with 7 samples.

Results

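The genes described here are 38 genes of neuronal receptors and calcium channels: 15 subunits of ionotropic glutamate receptors and 1 related delta receptor, 8 subunits of GABA-A receptors, and 14 subunits of voltage-gated calcium channels. They were chosen by name, with earlier results of these data in view, including a loss of intronic peaks of Cacnb2 and Gria4 from the SAFB DKO precipitates. Their values come from the 757 features that lay on the strand of 1 of these genes, within its GENCODE M21 span, and in no other gene, of 303889 features in all. A feature is a stretch of 1 strand on which reads were counted. By the feature names they were called on the pooled wild-type libraries. Of the 38 genes, 31 had at least 1 feature and 29 passed the filter on low counts. No feature was assigned to Gria2, Grin2b, Grin2c, Grin3a, Gabra2, Gabrb1 or Gabrb2, and Gabra5 and Cacna1d did not pass the filter.

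Ionotropic glutamate receptors are ion channels opened by the main excitatory transmitter of the brain. GABA-A receptors are chloride channels opened by its main inhibitory transmitter. Voltage-gated calcium channels consist of a pore-forming alpha-1 subunit with accessory alpha-2-delta and beta subunits, and they couple electrical activity to transmitter release and gene expression. Many of these genes have very long introns. SAFB and SAFB2 are nuclear proteins that bind RNA and the nuclear matrix, and EZH2 is the methyltransferase of Polycomb repressive complex 2, which silences developmental genes in embryonic stem cells.

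RNA was precipitated with an EZH2 antibody from male mouse embryonic stem cells of mixed CAST and B6 background, with a recombinase cassette at Rosa26 (RIP-seq). The cells were grown in 15% serum, and every group received doxycycline for 3 days, whose target the labels do not give. Wild type (WT, n = 3) was the parental line and clones 20 and 44, as replicates 1, 2 and 3. EZH2 KO (n = 2) was clones 12 and 19 without Ezh2, and SAFB DKO (n = 2) was clones 13 and 4 without Safb and Safb2, each as replicates 1 and 2. Values are given in that order. The series title states that this antibody cross-reacts with SAFB. Each replicate was thus the parental line or 1 clone, and p-values measured the spread between these. SAFB DKO against WT asks which precipitated RNA needs the SAFB proteins, and EZH2 KO against WT asks the same of EZH2. The difference between both knockouts is tested by SAFB DKO against EZH2 KO. The 3 comparisons share libraries and are not independent of each other.

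Total counts ran from 7050832 in EZH2 KO to 21832539 in WT, and read numbers given below are not scaled to them. Safb had 117 to 245 CPM in WT, counts scaled to library size, 284 and 314 in EZH2 KO, with 1.41 and 0.592 in SAFB DKO. Ezh2 had 165 to 202 CPM in WT, 2.26 and 0.157 in EZH2 KO, with 143 and 170 in SAFB DKO. WT clone 44 had the lowest WT value of Safb, 117 CPM against 239 and 245. Of 12 embryonic stem cell markers 11 had features, summing to 1981 to 2023 CPM in WT, 1804 to 1999 in EZH2 KO, with 2422 to 2536 in SAFB DKO. Of 16 neuron markers 10 had features, summing to 245 to 262, 174 to 229 and 173 to 174 CPM. Dcx, Tubb3, Neurod1, Slc17a6, Gad2 and Slc32a1 had none. By the test described below, 5 of the 11 stem cell markers fell and 3 rose in EZH2 KO against WT. Over all genes 22.5% fell and 25.3% rose there. The sum of the stem cell markers thus hides changes of single markers. The column names of the EZH2 KO libraries follow another pattern, which may mark a separate sequencing run. If so, genotype and run cannot be told apart in each comparison with EZH2 KO.

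The sequences shown are of 2 calcium channel beta subunit genes, chosen among features whose bases a reference transcript holds. They come from GENCODE M21 transcripts on mm10, in the direction of the gene, and only windows held by a transcript could be shown. The first is from the intronic peak of Cacnb2 with the most WT reads, at chr2:14692911-14693210 (+). A processed pseudogene, Gm13311, lies there on the other strand. The second is from another intronic peak of Cacnb2, at chr2:14763188-14763487 (+). The third is coding exon of Cacnb2, at chr2:14985731-14986030 (+), and the fourth is coding exon of Cacnb3, at chr15:98643285-98643568 (+). Capitals mark GAAGA, the longer motif AAGAAG and runs of at least 10 purines on the shown strand. GAAGA is background knowledge of SAFB binding, and matches are descriptions, not sites.
Cacnb2 intron, short-list peak: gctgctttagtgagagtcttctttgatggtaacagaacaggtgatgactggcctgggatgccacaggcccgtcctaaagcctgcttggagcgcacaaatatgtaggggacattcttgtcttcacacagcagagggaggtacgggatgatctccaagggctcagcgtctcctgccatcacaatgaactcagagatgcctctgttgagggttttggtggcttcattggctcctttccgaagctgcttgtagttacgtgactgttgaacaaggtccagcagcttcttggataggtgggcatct
Cacnb2 intron, filtered-list peak: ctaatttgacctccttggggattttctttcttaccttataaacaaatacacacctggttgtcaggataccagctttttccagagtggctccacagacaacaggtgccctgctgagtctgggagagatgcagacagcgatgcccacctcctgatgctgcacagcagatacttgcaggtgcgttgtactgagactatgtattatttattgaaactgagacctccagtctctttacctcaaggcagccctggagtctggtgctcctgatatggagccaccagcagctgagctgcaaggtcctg
Cacnb2 coding exon: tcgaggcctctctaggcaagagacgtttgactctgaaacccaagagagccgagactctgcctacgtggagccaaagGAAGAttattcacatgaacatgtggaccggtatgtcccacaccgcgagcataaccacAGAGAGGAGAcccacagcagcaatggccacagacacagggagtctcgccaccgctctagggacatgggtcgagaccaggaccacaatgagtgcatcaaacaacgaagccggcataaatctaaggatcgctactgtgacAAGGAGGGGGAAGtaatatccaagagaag
Cacnb3 coding exon: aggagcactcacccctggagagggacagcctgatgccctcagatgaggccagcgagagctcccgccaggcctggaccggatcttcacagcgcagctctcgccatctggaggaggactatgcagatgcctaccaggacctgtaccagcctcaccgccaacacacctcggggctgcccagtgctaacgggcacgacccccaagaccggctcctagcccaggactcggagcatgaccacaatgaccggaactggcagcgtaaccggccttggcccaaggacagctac
The reads of the whole features behind these windows differed between genotypes, but they are not scaled to library size. Total counts were 7050832 and 8353603 in EZH2 KO against 19024702 to 21832539 in WT. Fewer reads in EZH2 KO thus do not by themselves show a fall. The first Cacnb2 feature, chr2:14692326-14694488, had 157, 170 and 166 reads in WT, 43 and 25 in EZH2 KO, with 0 and 0 in SAFB DKO. The second, chr2:14762716-14763546, had 30, 40 and 22, then 4 and 0, then 0 and 0. The exonic Cacnb2 feature had 7, 13 and 6, then 0 and 0, then 2 and 5, so it was sparse in every group. The exonic Cacnb3 feature, chr15:98643285-98644522, had 335, 344 and 339, then 93 and 84, then 433 and 461. Both intronic peaks of Cacnb2 were thus without reads in SAFB DKO, where the exon of another gene, Cacnb3, had its most. On the gene strand neither intronic window held any of the motifs. The first held GAAGA 2 times and AAGAAG 2 times on the other strand. The Cacnb2 exon held GAAGA 1 time and 2 purine runs on its own strand, and the Cacnb3 exon held none. On the other strand the second intronic window held 1 purine run, the Cacnb3 exon held GAAGA 1 time and the Cacnb2 exon held none. The motifs share letters, so a stretch can match more than 1 of them. For scale, 34.6% of 32851 RefSeq promoter windows of 300 bases (GRCm38.p6) hold GAAGA on the gene strand and 56.5% on either strand. AAGAAG is in 12.5% and 22.5%, and a purine run in 45.8% and 70.8%. Purines made up 50.3%, 47.0%, 59.7% and 51.4% of the 4 windows, against a median of 50.3% in promoter windows.

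The precipitated RNA of most tested genes of long span was lower in SAFB DKO than in WT, and that of Cacnb1 and Cacnb3 was higher. Of 29 tested genes 17 fell, 2 rose and 10 did not pass the test, with a median log2 fold change of -2.26. Over all 16710 genes tested, 34.6% fell and 15.3% rose, with a median of -0.23. A change here is an adjusted p under 0.05 in edgeR's quasi-likelihood test over all genes. Since the genes were chosen with this comparison in view and features were called on WT, these counts are a description and no p is given for a single gene. SAFB DKO against EZH2 KO uses the same SAFB DKO libraries, so no p is given there for Cacnb2 and Gria4, whose peaks prompted the choice, and other p-values there are not independent of it. Falls from WT in EZH2 KO likewise start from features called on WT, so they are descriptions and no p is given for falls of single genes there. Counts are of precipitated RNA, so fewer cells holding an RNA, less RNA per cell and less RNA bound cannot be told apart. In EZH2 KO against WT, 5 genes rose and 9 fell (25.3% and 22.5% of all genes), with a median of -0.80 against 0.02 over all genes. In SAFB DKO against EZH2 KO, 14 were lower and 4 higher (41.2% and 28.8% of all genes), with a median of -2.11 against -0.34. The number that fell in EZH2 KO was 5 without WT replicate 1, WT replicate 3 or EZH2 KO replicate 1.

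**Figure D1:**
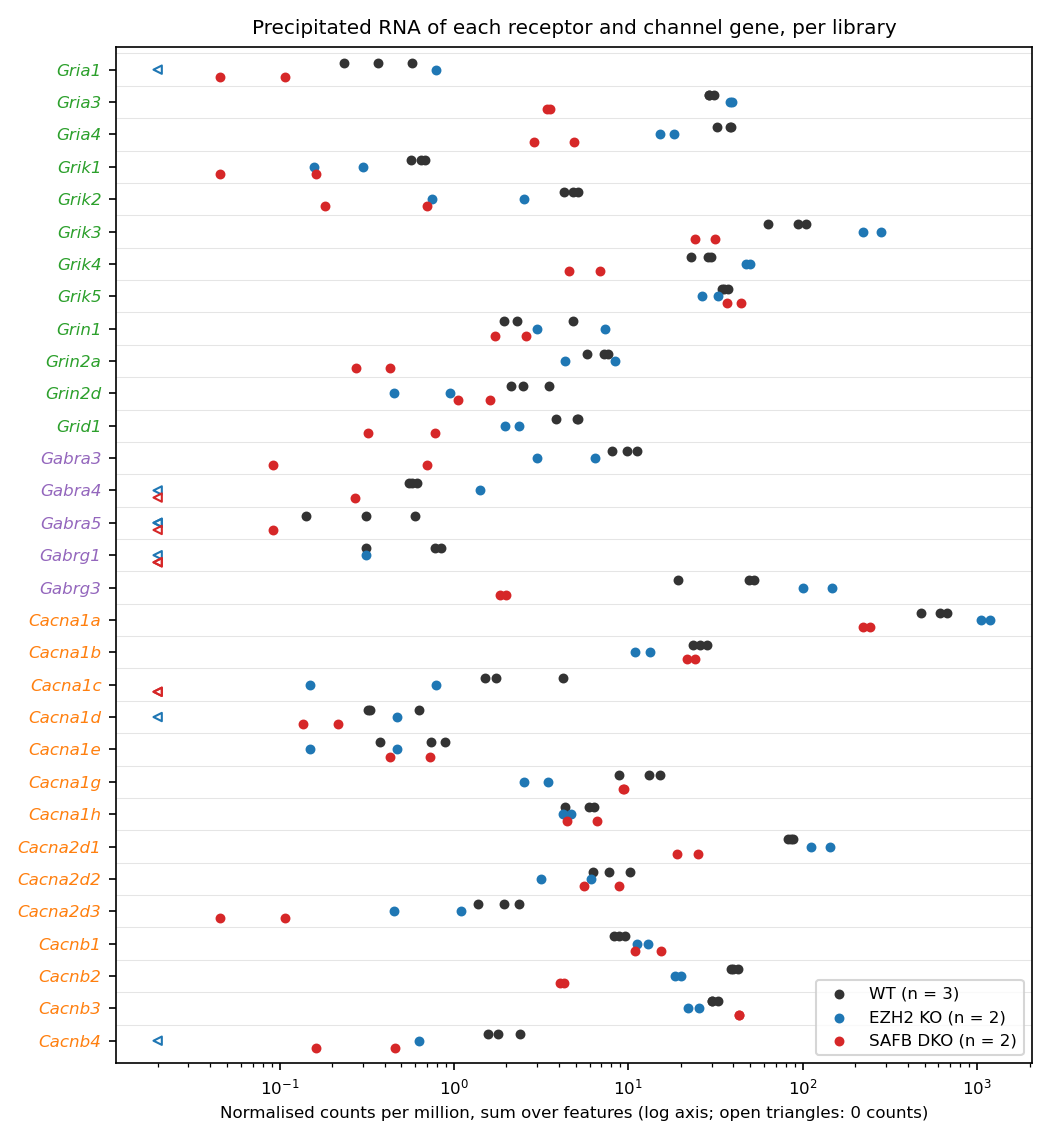
Scaled counts (CPM) of the 31 genes with features, summed over the features of each gene, in every library (log axis). Gene names are green for glutamate receptors, purple for GABA-A receptors and orange for calcium channels, and open triangles stand for 0 counts. Cacna1a has the highest values in all 7 libraries, and the SAFB DKO libraries of Gabrg3 lie at 1.83 and 1.99 against 19.2 to 52.3 in WT.

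Among the AMPA receptor genes, whose products carry most fast excitatory transmission, Gria3 and Gria4 held nearly all the signal. Gria3 (chrX:41400854-41678601) had 28.8, 31.2 and 28.8 CPM in WT, 39.1 and 38.1 in EZH2 KO, with 3.42 and 3.55 in SAFB DKO. The 3 groups did not overlap, and SAFB DKO was the lowest (log2 -3.08 ± 0.18 SE against WT). It was also below EZH2 KO (-3.47 ± 0.20, adjusted p = 1.3e-08, edgeR), while the difference of EZH2 KO from WT did not pass the test (0.38 ± 0.16, adjusted p = 0.0579). Gria4 (chr9:4417896-4796234) had 38.2, 32.4 and 39.0 CPM in WT, 15.2 and 18.2 in EZH2 KO, with 2.87 and 4.90 in SAFB DKO. In Gria4 both knockouts lay below WT without overlap. The gene fell in EZH2 KO (-1.13 ± 0.22) and was lower again in SAFB DKO than in EZH2 KO (-2.11 ± 0.26). Its log2 fold change between SAFB DKO and WT was -3.24 ± 0.24. Gria1 had at most 11 reads in a library, and its differences did not pass the test.

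The strongest Gria4 peak, chr9:4744363-4746144 in intron 3 of 16, had 124, 79 and 135 reads in WT, 13 and 16 in EZH2 KO, with 0 and 0 in SAFB DKO. Against a floor of 3 counts over the SAFB DKO group, WT was at least 74.1-fold higher. A neighbouring peak in the same intron, chr9:4746674-4747256, had 74, 39 and 42, then 4 and 6, then 0 and 0 reads, with WT at least 33.4-fold higher. Of these 2 peaks the differences of EZH2 KO from WT did not pass the test (adjusted p = 0.0641 and 0.0921). The Gria3 peak at chrX:41549396-41551383 in intron 4 of 15 had 50, 94 and 48 reads in WT, 25 and 10 in EZH2 KO, with 0 and 0 in SAFB DKO, a difference of at least 41.5-fold between WT and SAFB DKO. The main Gria3 peak, chrX:41426505-41428817, still had 8 and 5 reads in SAFB DKO against 142, 130 and 104 in WT.

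Kainate receptor genes, coding for glutamate receptors that tune transmission on both sides of the synapse, differed among themselves. Grik3 (chr4:125490700-125714173) had 94.0, 104.0 and 63.1 CPM in WT, 222 and 280 in EZH2 KO, with 24.1 and 31.3 in SAFB DKO. Its groups did not overlap and stood in the order SAFB DKO, WT, EZH2 KO. Grik3 rose in EZH2 KO (1.53 ± 0.20, adjusted p = 6.5e-05), and in SAFB DKO it was lower than in WT (-1.65 ± 0.21) and in EZH2 KO (-3.18 ± 0.24, adjusted p = 9.1e-08). Grik4 had the same order, with group means of 27.1, 48.7 and 5.70 CPM in WT, EZH2 KO and SAFB DKO, and rose in EZH2 KO (0.84 ± 0.19, adjusted p = 0.00267).

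Grik5 (chr7:25009849-25072346), a gene of 62.5 kb that codes for an auxiliary kainate subunit, had 37.0, 35.2 and 34.6 CPM in WT, 32.5 and 26.6 in EZH2 KO, with 44.2 and 37.0 in SAFB DKO. WT and SAFB DKO overlapped (0.19 ± 0.15), but Grik5 passed as higher under DESeq2 size factors (0.44) or unscaled column totals (0.41). Grik5 was higher in SAFB DKO than in EZH2 KO (0.46 ± 0.18, adjusted p = 0.0324), but without its feature of highest level the difference was 0.01 (adjusted p = 0.977). That call also missed the threshold without WT replicate 1, 2 or 3 (0.43, 0.43 and 0.42), without EZH2 KO replicate 2 (0.38) and without SAFB DKO replicate 1 (0.37). Grik1 and Grik2, both over 200 kb, fell in SAFB DKO. Grik2 also fell in EZH2 KO (-1.54 ± 0.56).

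NMDA receptors are glutamate receptors that admit calcium, and the delta receptor gene Grid1 codes for a synapse-organising relative. Grin2a (chr16:9567898-9995560) had 5.79, 7.25 and 7.62 CPM in WT, 4.36 and 8.34 in EZH2 KO, with 0.274 and 0.431 in SAFB DKO. WT and EZH2 KO overlapped (-0.12 ± 0.34, adjusted p = 0.796), and SAFB DKO lay below both (-4.28 ± 0.45 against WT, -4.16 ± 0.49 against EZH2 KO, adjusted p = 5.2e-06). Without EZH2 KO replicate 2 the last value was -3.57. Grin1 (chr2:25291181-25319187), the obligatory NMDA subunit gene, spans 28 kb and had 1.93, 4.80 and 2.30 CPM in WT, 7.37 and 2.99 in EZH2 KO, with 2.60 and 1.72 in SAFB DKO. The Grin1 groups overlapped and no difference passed the test. Grin2d fell in EZH2 KO (-1.95 ± 0.60) from 46 to 67 reads in WT to 3 and 6. Grid1 (chr14:34820108-35583379) had 5.10, 5.18 and 3.86 CPM in WT, 1.95 and 2.36 in EZH2 KO, with 0.776 and 0.323 in SAFB DKO. Its groups did not overlap, and it was lower in SAFB DKO than in EZH2 KO (-1.93 ± 0.55, adjusted p = 0.00636, and -2.66 without SAFB DKO replicate 1). Its fall in EZH2 KO only just passed the threshold (-1.13 ± 0.44). It missed the threshold without WT replicate 1, 2 or 3 (-1.05, -1.04 and -1.24) and without EZH2 KO replicate 1 or 2 (-1.06 and -1.33).

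Of the GABA-A receptor genes, Gabrg3 had the most counts. Gabrg3 (chr7:56716465-57387188), a gamma subunit gene of 670.7 kb, had 49.5, 52.3 and 19.2 CPM in WT, 101 and 148 in EZH2 KO, with 1.83 and 1.99 in SAFB DKO. The groups did not overlap, and WT clone 44 was well below the other WT libraries. Gabrg3 rose in EZH2 KO (1.62 ± 0.31, adjusted p = 9.4e-04) and was lower in SAFB DKO than in EZH2 KO (-6.03 ± 0.46, adjusted p = 1.1e-07) and than in WT (-4.40 ± 0.43). Its intronic feature of highest level, chr7:57240855-57242637 in intron 3 of 9, was on neither peak list, with 106, 114 and 39 reads in WT, 91 and 178 in EZH2 KO, with 0 and 2 in SAFB DKO. Gabra3 (chrX:72432681-72656848), an alpha subunit gene, had 9.88, 8.05 and 11.2 CPM in WT, 3.01 and 6.45 in EZH2 KO, with 0.0912 and 0.700 in SAFB DKO. Its groups did not overlap, but the difference of EZH2 KO from WT did not pass the test (-1.04 ± 0.44). Gabra3 was lower in SAFB DKO than in EZH2 KO (-3.62 ± 0.62, adjusted p = 1.6e-04). That value was -2.93 without EZH2 KO replicate 2, -2.68 without SAFB DKO replicate 1 and -5.53 without SAFB DKO replicate 2. Gabra4 had 12, 13 and 11 reads in WT, 0 and 9 in EZH2 KO, with 0 and 5 in SAFB DKO, and no difference passed the test. Gabrg1 had 17, 18 and 6 reads in WT, 0 and 2 in EZH2 KO, with 0 and 0 in SAFB DKO, so that WT was at least 8.74-fold above SAFB DKO.

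Among the pore-forming calcium channel genes, Cacna1a, which codes for the P/Q-type channel, alone held 54.6% of the reads of all 38 genes over the 7 libraries. Cacna1a (chr8:84388440-84640246) had 675, 612 and 479 CPM in WT, 1049 and 1191 in EZH2 KO, with 223 and 244 in SAFB DKO. The groups did not overlap. It rose in EZH2 KO (0.93 ± 0.15, adjusted p = 2.5e-04) and was lower in SAFB DKO than in EZH2 KO (-2.26 ± 0.17, adjusted p = 9.7e-08) and than in WT (-1.34 ± 0.16).

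Cacna1b (chr2:24603887-24763152), the N-type channel gene, had 28.4, 25.9 and 23.6 CPM in WT, 10.97 and 13.4 in EZH2 KO, with 21.6 and 24.2 in SAFB DKO. SAFB DKO overlapped WT (-0.18 ± 0.17), and EZH2 KO lay below both. Cacna1b fell in EZH2 KO (-1.09 ± 0.19) and was higher in SAFB DKO than in EZH2 KO (0.91 ± 0.21, adjusted p = 0.00148). Cacna1g, a T-type channel gene of 65.8 kb, had the same pattern. Its group means were 12.4, 2.99 and 9.37 CPM in WT, EZH2 KO and SAFB DKO. Its fall in EZH2 KO was 2.05 ± 0.33 on the log2 scale. Cacna1c, an L-type channel gene of 609.2 kb, had 92, 37 and 29 reads in WT, 1 and 5 in EZH2 KO, with 0 and 0 in SAFB DKO. Cacna1c was among the genes that fell in EZH2 KO, with no p given because its reads were nearly all in WT, where features were called. For Cacna1c, WT was at least 33.7-fold above SAFB DKO. Cacna1e and Cacna1h passed no test in any comparison.

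Alpha-2-delta subunits carry channels to the membrane. Cacna2d1 (chr5:15934691-16374511), the target of gabapentin, had 85.8, 87.9 and 82.1 CPM in WT, 111 and 144 in EZH2 KO, with 19.0 and 25.1 in SAFB DKO. Its groups did not overlap. It rose in EZH2 KO (0.58 ± 0.16, adjusted p = 0.00796), but missed the threshold without EZH2 KO replicate 2 (0.32, adjusted p = 0.11). It was lower in SAFB DKO than in EZH2 KO (-2.53 ± 0.18, adjusted p = 7.3e-08) and than in WT (-1.95 ± 0.17). Cacna2d2 (chr9:107399612-107529343), of 129.7 kb, had 10.2, 7.72 and 6.26 CPM in WT, 3.16 and 6.13 in EZH2 KO, with 8.80 and 5.54 in SAFB DKO. The SAFB DKO values of Cacna2d2 lay on either side of its lowest WT value, and no difference passed the test. Cacna2d3, of 816.9 kb, had 1 and 2 reads in SAFB DKO against 30, 50 and 37 in WT.

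Beta subunits sit on the inner face of the channel, and their genes differed. Cacnb2 (chr2:14603088-14987908), of 384.8 kb, had 40.0, 42.4 and 38.7 CPM in WT, 20.0 and 18.6 in EZH2 KO, with 4.06 and 4.25 in SAFB DKO. Its groups did not overlap, and it fell in EZH2 KO (-1.07 ± 0.17). It was lower in SAFB DKO than in EZH2 KO (-2.21 ± 0.20) and than in WT (-3.28 ± 0.18). Cacnb3 (chr15:98630840-98644529), of 13.7 kb, had 30.1, 30.3 and 32.6 CPM in WT, 21.95 and 25.5 in EZH2 KO, with 43.0 and 42.8 in SAFB DKO. For Cacnb3 the 3 groups did not overlap, and SAFB DKO lay above WT (0.47 ± 0.14) and above EZH2 KO (0.86 ± 0.17, adjusted p = 5.2e-04). The difference of EZH2 KO from WT in Cacnb3 did not pass the test (-0.39 ± 0.16). Cacnb1, of 21.5 kb, had 8.83, 8.33 and 9.61 CPM in WT, 12.9 and 11.2 in EZH2 KO, with 15.4 and 10.98 in SAFB DKO, and it was above WT in SAFB DKO (0.57 ± 0.22). Cacnb4, of 248.5 kb, had 52, 38 and 30 reads in WT, 0 and 4 in EZH2 KO, with 10 and 3 in SAFB DKO, and SAFB DKO and EZH2 KO did not differ beyond their error (0.03 ± 1.11). The rise of Cacnb3 missed the threshold without WT replicate 1 or 2 (0.44 and 0.44) and without SAFB DKO replicate 1 or 2 (0.46 and 0.44). The rise of Cacnb1 missed it without any 1 of the WT replicates 1, 2 and 3 (0.55, 0.51 and 0.59) and without SAFB DKO replicate 1 (0.29).

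The members that fell in SAFB DKO were mainly the long ones. Of 18 tested members spanning at least 200 kb, 16 fell in SAFB DKO against WT, and Gria1 and Cacna1e did not pass the test. Of all 883 such genes 83.8% fell, so the share of the members is near that of other long genes. The median log2 fold change was -3.07 for the 18 members and -1.66 for the 883 genes. Of 9 members under 100 kb, 1 fell (Gabrg1), 2 rose (Cacnb1 and Cacnb3) and 6 did not pass the test, where 29.0% of all 14518 genes under 100 kb fell and 17.2% rose. In SAFB DKO against EZH2 KO, 14 of the 18 long members were lower (78.4% of all long genes) while of the 9 short ones 3 were higher (Grik5, Cacna1g and Cacnb3) and 6 did not pass the test. Of all genes under 100 kb 32.0% were higher there, so 3 of 9 is near that share. In EZH2 KO against WT, 5 of the 18 rose (35.2% of all long genes) and 6 fell, against 123 of 883 long genes that fell.

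**Figure D2:**
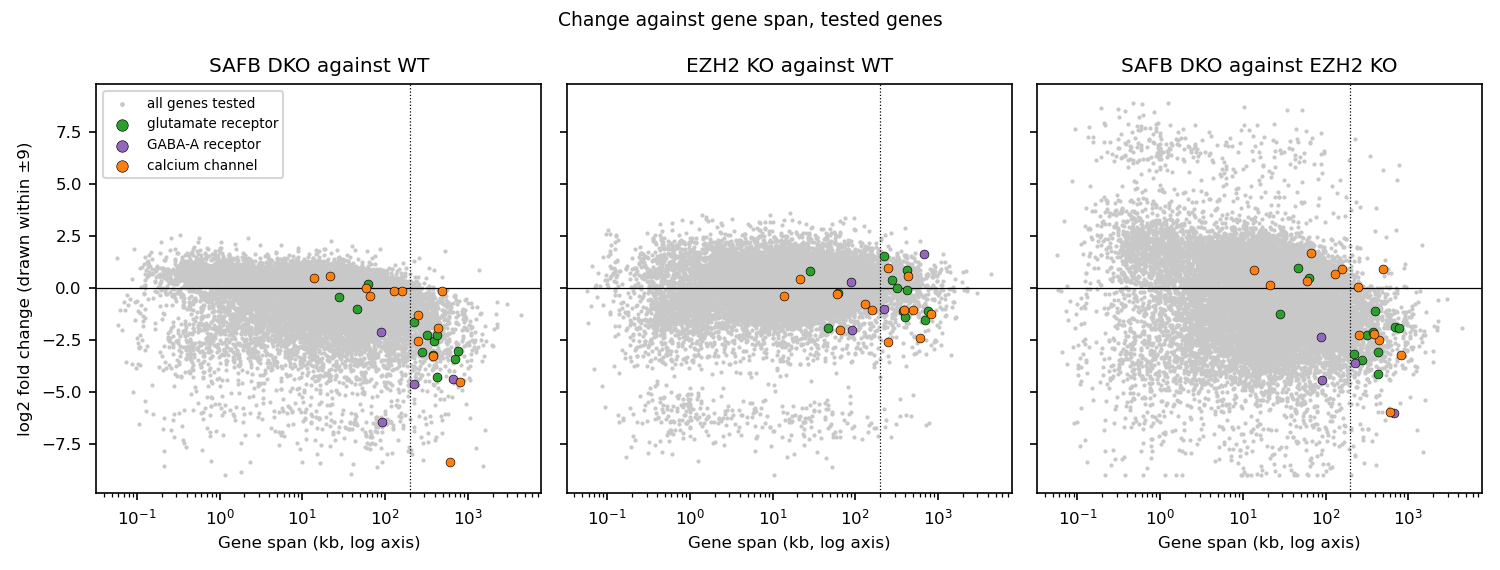
log2 fold change of each tested gene against its span in kb (log axis), with all genes in grey, the tested members coloured by family and a dotted line at 200 kb. In both comparisons with SAFB DKO the long members lie mostly below 0, as do most other long genes, and members under 100 kb lie nearer 0.

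Most features of these genes were intronic. Of the 757 features, 586 (77.4%) touched no exon, against 56.1% of 223722 features of single genes. On the authors' filtered list of peaks were 133 features (17.6%, against 7.14%), and on their short list 27 (3.57%, against 2.62%). The rules of both lists are not given in the sources used here. All 27 short-list peaks of members were intronic, in 10 genes: Cacna2d1 and Cacnb2 with 5 each, Gria3 and Gria4 with 3, Grik3, Grik4, Gabra3, Gabrg3 and Cacna1a with 2, and Grik2 with 1. Among member features on the filtered list, the short-list peaks with the fewest WT reads had 100 (Cacnb2) and 101 (Gabrg3), and the other peaks with the most had 92 (Gria4) and 92 (Cacnb2). Features on neither list reached more, such as 259 WT reads in the Gabrg3 feature above. Of the 27, 21 lay in introns 1 to 3 of the longest coding transcript and 19 in its longest intron. Introns 1 to 3 made up 54.6% of the intron length of these 10 genes, and the longest introns 40.2%.

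In SAFB DKO against WT, 26 of the 27 intronic short-list peaks fell, against 98.3% of all such peaks, with a median of -4.11. The other, a Cacnb2 peak at chr2:14680852-14681809, had 17, 43 and 40 reads in WT and 5 and 9 in SAFB DKO (-2.19). The 1 member feature that rose (0.168% of all intronic features) was in an intron of Grik4, chr9:42915584-42915658, with 6, 10 and 8 reads in WT, 0 and 3 in EZH2 KO, with 32 and 39 in SAFB DKO. It was chosen after its values were seen. Of all 270 tested intronic features 111 fell, against 19.7% of all intronic features. Outside the short list, 43 of 58 on the filtered list alone fell, against 50.3% over all genes. On neither list 42 of 185 fell, against 11.5%. Of 104 features that touched an exon 14 fell, against 6.52% over all genes. Without Cacna1a 4 of 75 exonic features fell (5.33%), near that share. In SAFB DKO against EZH2 KO, 24 of the 27 short-list peaks were lower, against 97.4% of all intronic short-list peaks. So were 125 of the 270 intronic features, against 26.5% over all genes, and 19 of the 104 exonic ones, against 9.97%. There 3 intronic and 21 exonic features were higher, against 7.82% and 29.5% over all genes. With library sizes from the column totals, 118 features were lower and 39 higher in that comparison, against 144 and 24. Without SAFB DKO replicate 1, 77 member features fell from WT, against 125.

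In EZH2 KO the short-list peaks of the members did not move one way. Of the 27, 8 rose, against 48.4% of all intronic short-list peaks, and 1 fell, against 0.828%. The 8 were in Grik3 (1), Gabrg3 (2), Cacna1a (2) and Cacna2d1 (3). The Cacna1a peak at chr8:84493131-84495492, in intron 3 of 46, had 1029, 964 and 681 reads in WT, 504 and 721 in EZH2 KO, with 84 and 91 in SAFB DKO. Scaled to library size it rose in EZH2 KO (1.15 ± 0.20, adjusted p = 0.00143) and was lower in SAFB DKO than in EZH2 KO (-4.44 ± 0.27, adjusted p = 2.2e-09). The peak that fell was in Cacnb2, chr2:14908161-14909245, with 53, 72 and 58 reads in WT, 0 and 3 in EZH2 KO, with 0 and 1 in SAFB DKO (-3.63 ± 0.87 in EZH2 KO against WT, a description for a peak called on WT). Over all tested features of members, 32 intronic ones rose and 4 fell in EZH2 KO, against 8.8% and 4.32% of all intronic features. Of the exonic ones 10 rose and 8 fell, against 4.72% and 13.6% over all genes. Without WT replicate 1, 2 or 3, 27, 26 and 24 member features rose, against 42, and with column totals 33 rose and 23 fell, against 42 and 12.

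**Figure D3:**
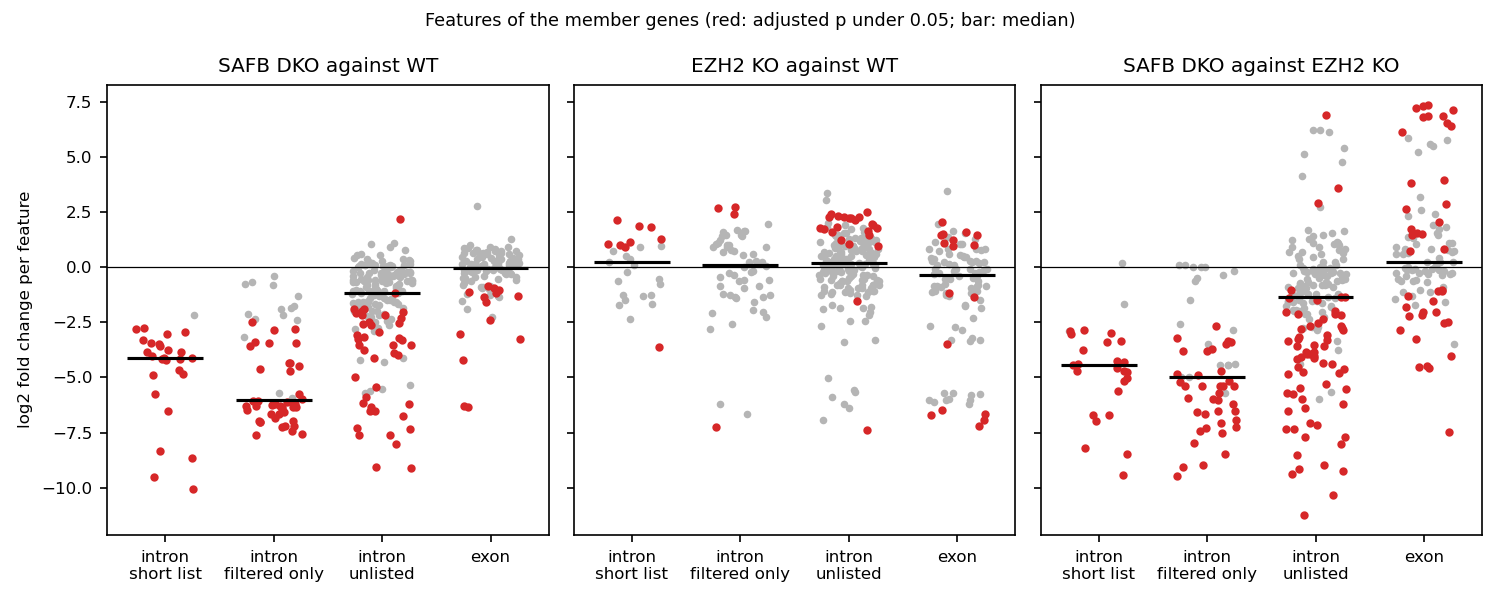
log2 fold change of each tested member feature in the 3 comparisons, by region and peak list, with the median as a bar and features with an adjusted p under 0.05 in red. Short-list peaks lie below 0 in SAFB DKO against WT (median -4.11) and on both sides of 0 in EZH2 KO against WT (median 0.23). Values beyond about 5 come from features with a group at 0 reads and depend on the fit's prior count.

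**Figure D4:**
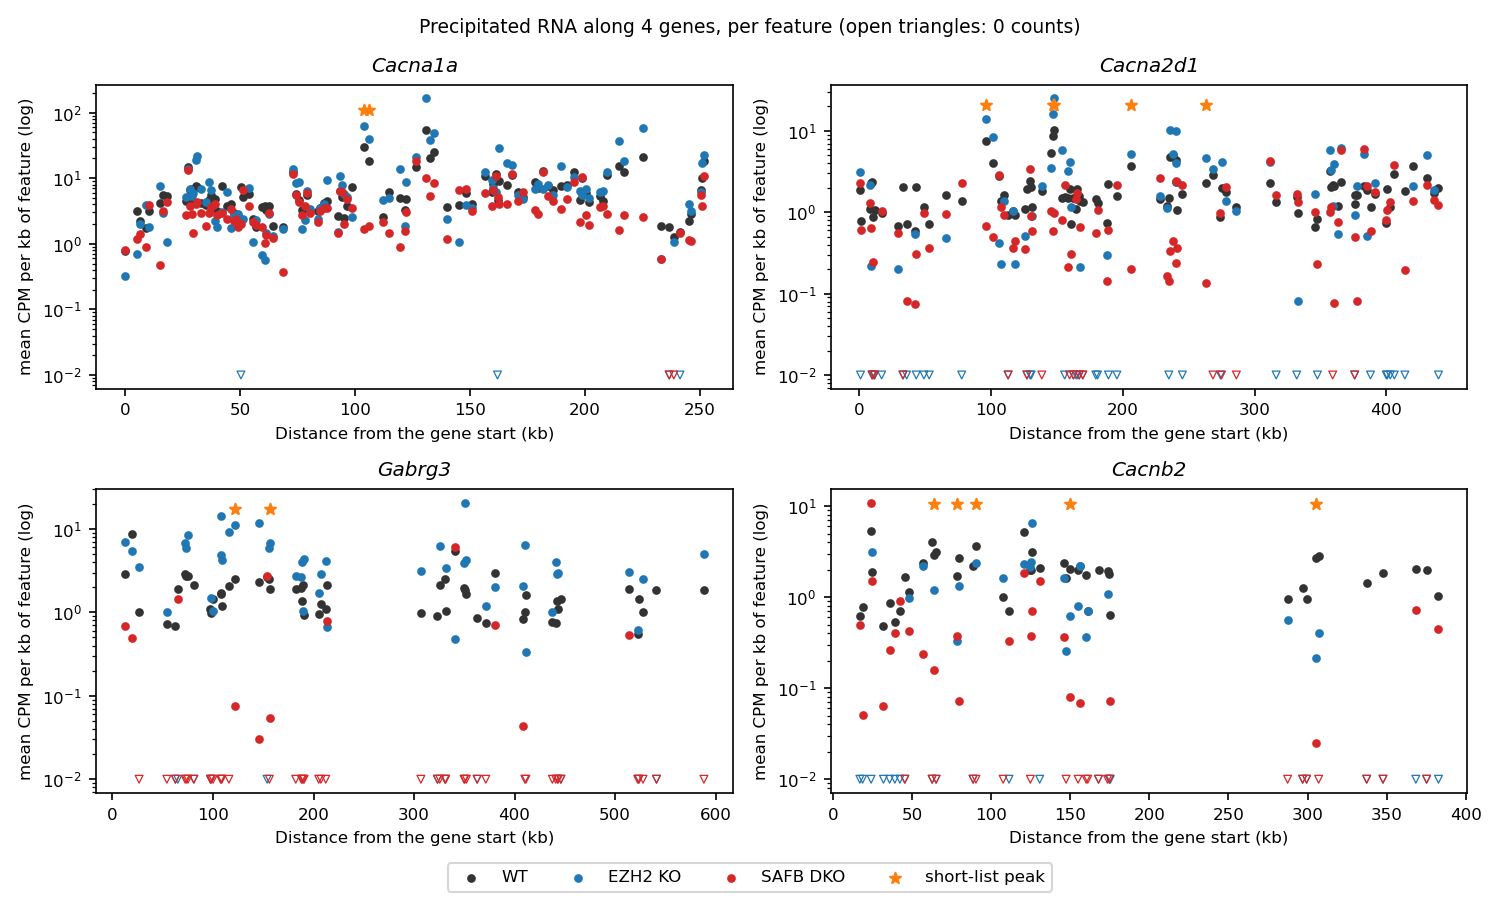
Mean CPM per kb of each feature (log axis) against its distance from the gene start in Cacna1a, Cacna2d1, Gabrg3 and Cacnb2, by group, with stars above the positions of short-list peaks and open triangles for 0 counts. Under the stars of Cacna1a and Cacna2d1 the SAFB DKO points lie below those of WT, and many SAFB DKO features of Gabrg3 are at 0.

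A test of the difference itself compared intron sums with exon sums within a gene, for the 14 members with enough of both. Introns fell more than exons in SAFB DKO against WT in 6 of them, Gria3, Gria4, Grik3, Grin2d, Cacna1b and Cacna2d1, against 38.1% of 8442 genes. The count was 3 without WT replicate 1, 2 or 3, where Gria3, Grin2d and Cacna1b no longer passed. With features exonic only from 50% of their length, Grin2d (-1.53) and Cacna1b (-0.47) did not pass either, and Grin2d did not pass against EZH2 KO (adjusted p = 0.0706). In SAFB DKO against EZH2 KO introns were relatively lower in 7 (Gria3, Gria4, Grik3, Grik5, Grin2d, Cacna2d1 and Cacnb2), against 47.3%. They were relatively higher in 1 (Cacna1a), against 10.1%. Cacna2d1 had intronic sums of 79.0, 79.4 and 73.9 CPM in WT, 100 and 137 in EZH2 KO, with 11.3 and 17.8 in SAFB DKO. Its exonic sums were 6.85, 8.52 and 8.25, then 11.1 and 7.08, then 7.76 and 7.37 CPM, so its exons overlapped between groups while its introns did not. The intron-minus-exon difference of Cacna2d1 was -2.78 ± 0.36 on the log2 scale (adjusted p = 2.4e-05) against EZH2 KO and -2.40 ± 0.31 against WT. Gria4 gave -3.73 ± 0.62 against EZH2 KO and -4.63 without EZH2 KO replicate 2, as a description. Grik3 gave -1.61 ± 0.23 (adjusted p = 4.9e-05). Exonic reads of Grin2d and Cacnb2 were 0 in EZH2 KO, so no size is given for them, and Cacnb2 missed the threshold without SAFB DKO replicate 2 (adjusted p = 0.0913). Grik5 (-0.96 ± 0.38, adjusted p = 0.0478) missed it without any library but EZH2 KO replicate 2 (adjusted p from 0.0678 to 0.449). The value of Gria3 (-3.40 ± 0.93, adjusted p = 0.00731) was -2.40 without EZH2 KO replicate 2 and missed the threshold without SAFB DKO replicate 1 (-2.07, adjusted p = 0.224). Without EZH2 KO replicate 1 that group had 0 exonic reads of Gria3, so no size is given.

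The sign for Cacna1a depended on which features counted as exonic. In the main rule a feature that touched an exon by 1 base was exonic. Its introns then rose less than its exons in EZH2 KO (-0.47 ± 0.14, adjusted p = 0.0248, against 7.38% of genes with introns relatively lower) and were relatively higher in SAFB DKO than in EZH2 KO (0.73 ± 0.16, adjusted p = 0.00148). The exon-touching feature with the most reads, chr8:84518638-84520248, was exonic over 7.8% of its bases. It had 2352, 1929 and 1223 reads in WT, 1685 and 1768 in EZH2 KO, with 421 and 253 in SAFB DKO. Relative to library size, EZH2 KO lay above every WT library and SAFB DKO below every one. With features exonic only from 50% of their length, the differences of Cacna1a turned to 0.97 ± 0.17 in EZH2 KO against WT (adjusted p = 7.4e-04), -2.05 ± 0.18 in SAFB DKO against EZH2 KO (adjusted p = 6.5e-07) and -1.08 ± 0.16 in SAFB DKO against WT. Under that rule 2 members, Cacna1a and Grik3, had introns that rose more than exons in EZH2 KO, against 1, Grik3, under the main rule (0.56 ± 0.20, adjusted p = 0.0481, against 23.8% of genes). That call of Grik3 missed the threshold without any library but WT replicate 2 (adjusted p from 0.0562 to 0.145). The call of Cacna1a in EZH2 KO under the main rule missed it without WT replicate 2 or 3 or EZH2 KO replicate 1 (-0.49, -0.39 and -0.41).

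Features that touch an exon were also split by how much of them was exonic. Of 65 tested member features exonic over at least 50% of their bases, 2 fell in SAFB DKO against WT (5.51% of all such features). Of 39 exonic over less, 12 fell, 10 of them in Cacna1a, against 9.33% of all such features. In EZH2 KO against WT 2 of the 65 and 8 of the 39 rose, against 3.95% and 6.89% over all genes. In SAFB DKO against EZH2 KO 5 of the 65 and 14 of the 39 were lower, against 8.48% and 14.2%. There 10 of the 65 and 11 of the 39 were higher, against 31.7% and 23.5% of all such features. Without Cacna1a, 2 of 49 and 2 of 26 fell in SAFB DKO against WT, and 2 of 49 and 2 of 26 rose in EZH2 KO. In these comparisons the split rested mainly on Cacna1a. In SAFB DKO against EZH2 KO without Cacna1a, 2 of 49 and 4 of 26 were lower, against 8.48% and 14.2% of all such features. The 15.4% of the less exonic ones is thus near the share over all genes. There 10 of 49 and 10 of 26 were higher, against 31.7% and 23.5%.

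**Figure D5:**
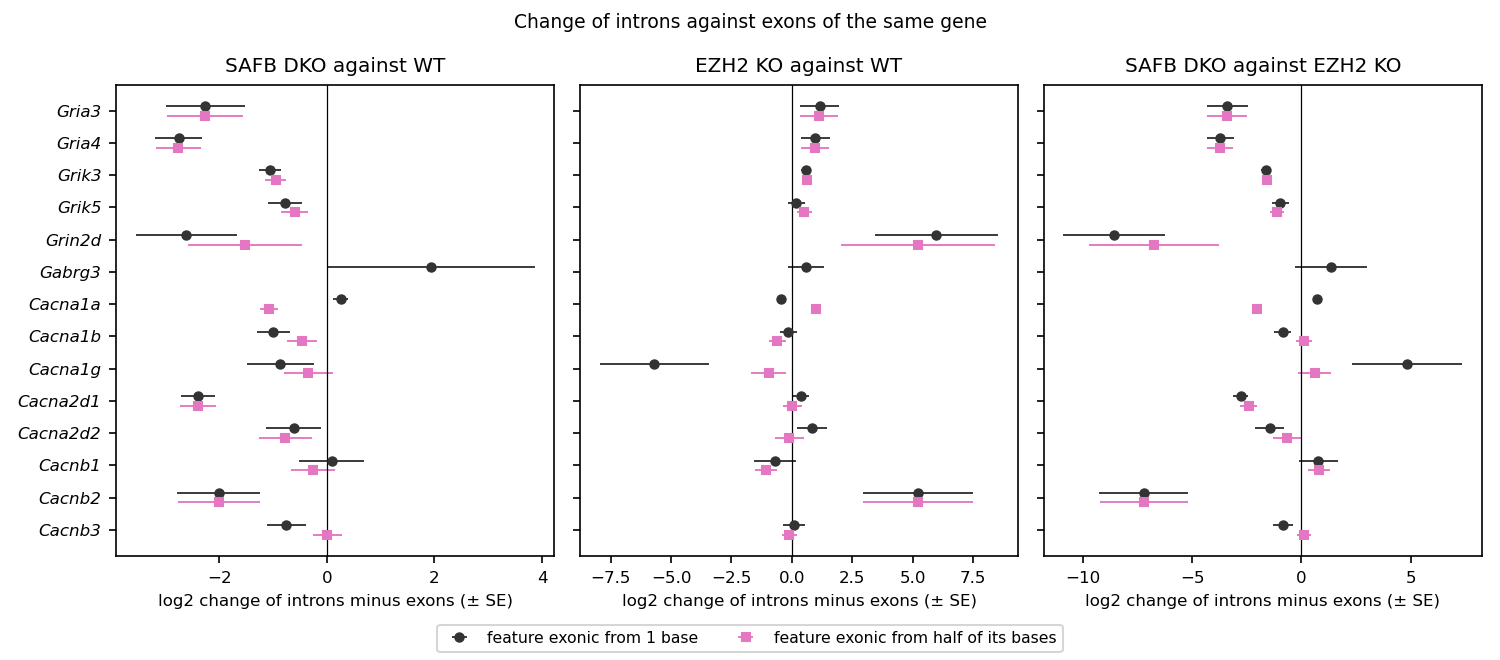
Difference between the log2 change of introns and that of exons for each of the 14 members tested (± SE), with 2 rules for an exonic feature. Cacna1a changes sign with the rule in every comparison, while Gria3, Gria4, Grik3 and Cacna2d1 hold their sign in both comparisons with SAFB DKO, and the widest bars belong to genes with few exonic reads.

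The intronic share of the members' reads followed the genotype. Without Cacna1a it was 73.9%, 75.5% and 72.8% in WT, 82.4% and 84.3% in EZH2 KO, with 31.4% and 35.03% in SAFB DKO. The widest exact Clopper-Pearson 95% interval of these shares was 33.6% to 36.5%, in SAFB DKO replicate 2. The groups did not overlap. With Cacna1a the shares were 56.3%, 58.6% and 59.5%, then 53.6% and 56.4%, then 41.3% and 41.0%, so the rise in EZH2 KO was no longer seen. Over all genes the shares were 22.6% to 24.1% in WT, 30.9% and 32.2% in EZH2 KO, with 12.7% and 12.8% in SAFB DKO. With features exonic only from 50% of their length, the members with Cacna1a had 87.7% to 89.4% in WT, 93.1% and 93.9% in EZH2 KO, with 75.2% and 72.2% in SAFB DKO. Under that rule the members without Cacna1a had 84.4%, 85.25% and 83.6% in WT, 88.5% and 90.8% in EZH2 KO, with 62.4% and 60.3% in SAFB DKO. The size of the fall in SAFB DKO thus depended on the rule for an exonic feature. These intervals, and the floors above, reflect counting error alone, because no molecular identifiers were used to tell molecules from their copies.

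Genes of the same pathways outside the 38 were counted from 3 further lists, also drawn up with earlier results known. Of 25 other receptor and channel subunits, 8 were tested, and in SAFB DKO against WT 4 fell and the other 4 did not pass the test (median -1.12). Of 35 tested synaptic scaffold and auxiliary genes 21 fell and 2 rose (median -0.79), and of 25 other neuronal ion channels 18 fell and 2 rose (median -1.93). In EZH2 KO against WT 4 of 8, 11 of 35 and 3 of 25 fell, and 1, 4 and 6 rose. As a scale for these lists and the markers below, 34.6% of all tested genes were lower in SAFB DKO than in WT. A further 15.3% were higher. For EZH2 KO the shares of lower and higher genes were 22.5% and 25.3%. Of the 10 tested neuron markers 4 fell in SAFB DKO against WT, near the share of all genes, and 5 in EZH2 KO. Of the 11 stem cell markers 7 rose and 1 fell in SAFB DKO, and 3 rose and 5 fell in EZH2 KO. Of neural progenitor markers 3 of 8 were tested and 2 fell in SAFB DKO, with sums of 186 to 259 CPM in WT, 144 to 176 in EZH2 KO, with 74.99 to 75.3 in SAFB DKO. Of mesendoderm markers 4 of 10 were tested and 3 fell, with sums of 16.04 to 21.7, 21.4 to 30.5 and 7.07 to 7.59 CPM. The 3 tested heart muscle and 2 tested fibroblast markers did not pass the test there, with sums of at most 12.4 and 10.3 CPM in any library. The part of other cell types in the members' changes was not tested.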

How the data were processed

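RNA precipitated with an EZH2 antibody was sequenced from 7 libraries of mouse embryonic stem cells. The deposited values are raw counts of reads per feature, which the authors made by running featureCounts 2.0.3 on mm10 with its reverse-strand setting, per the file headers and the submitters' processing notes. The aligner, the peak caller and the rules of both peak lists are not given in the sources used here, and 3 columns that match no listed sample were not used. Features were assigned to genes by strand and GENCODE M21 span, and 7446 features of several genes were left out. Column totals, multiplied by TMM factors taken over tested features outside the filtered list, served as library sizes. edgeR 4.0.16 in R 4.3.3 fitted all 7 libraries by group, with quasi-likelihood tests and Benjamini-Hochberg adjustment over 192964 features, 16710 genes or 8442 genes with introns and exons, at a threshold of 0.05. The intron-against-exon test is an interaction term. The fits were tested on simulated counts.

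The members, lists and tests were chosen with earlier results of these data known. In each role, the 2 genes with the highest mean level were given in every library, together with peaks of Cacnb2 and Gria4 seen earlier and members that went against most others. Sequences of the strongest peak of each family could not be shown without a genome, so windows were those that reference transcripts hold. Alternatives were other scalings, DESeq2 1.42.0, other filters, a replicate block, leaving out each library or the strongest feature of each gene, and exonic features defined by 50% of their length. Leaving out Cacna1a from the intronic share was added after the data were seen. Where 1 library was left in a group, it was assumed to vary like the other groups.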

Additional observations from a re-analysis of the deposited data

Results flagged for a closer look

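Features on the strand opposite to the members, which no comparison above uses, held a mean of 46.08 CPM in WT. These 76 features lay within 21 of the 38 genes and in no other gene, 9 of them on the filtered list and 2 on the short list. Their sums were 52.2, 45.6 and 40.5 CPM in WT, 68.6 and 81.2 in EZH2 KO, with 16.7 and 16.95 in SAFB DKO, so the groups did not overlap. Cacna1a held 33 of them, with 630, 589 and 337 reads in WT, 313 and 298 in EZH2 KO, with 214 and 165 in SAFB DKO. These reads are not scaled. Relative to library size, those of Cacna1a were higher in EZH2 KO than in every WT library. Whether these reads come from unannotated transcripts was not tested.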

How the results depend on the processing

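Between the scalings tried, the median log2 fold change over all genes moved by 0.09 to 0.25 for SAFB DKO against WT, by -0.25 to 0.01 for EZH2 KO against WT and by 0.22 to 0.47 for SAFB DKO against EZH2 KO. With a mean of at least 50 counts, which tests fewer genes and features, 10 member genes fell in SAFB DKO against WT (17 in the main analysis) and 5 in EZH2 KO (9), and 39 features fell in SAFB DKO (125), 27 rose in EZH2 KO (42) and 42 were lower in SAFB DKO than in EZH2 KO (144). Without the strongest feature of each gene 5 genes fell in EZH2 KO. With the replicate block, 4 genes fell in EZH2 KO, 72 features fell in SAFB DKO against WT and 20 rose in EZH2 KO, and the cause was not tested. The labels give no pairing beyond the number, and deviations of same-numbered WT and EZH2 KO libraries correlated by 0.0992 and 0.0023 over genes. With features exonic from 50% of their length, 2 genes had introns that rose more than exons in EZH2 KO, and the difference of Cacna1a reversed to -1.08, 0.97 and -2.05 in SAFB DKO against WT, EZH2 KO against WT and SAFB DKO against EZH2 KO. Leaving out each library in turn gave 14 to 18 genes that fell in SAFB DKO against WT, 4 to 5 that rose and 5 to 11 that fell in EZH2 KO, and 11 to 16 lower in SAFB DKO than in EZH2 KO. It gave 77 to 171 features that fell in SAFB DKO against WT, 24 to 48 that rose in EZH2 KO and 104 to 152 lower in SAFB DKO than in EZH2 KO. Introns fell more than exons in 3 to 8 genes against WT and in 5 to 7 against EZH2 KO, and rose more in 0 to 1 in EZH2 KO. In EZH2 KO against WT, column totals added falls of Grik5 (-0.50), Gabra3 (-1.31), Cacna2d2 (-1.07) and Cacnb3 (-0.64), and DESeq2 size factors added a rise of Gria3 (0.40). The EZH2 KO libraries, with the lowest totals, limit what features of few reads can show.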
